A study of Mus musculus with 6 samples.

Results

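The genes described here are 10 transcription factors known for the development of striatal projection neurons, picked by name from the 21286 genes of the table and all found in it. They are 3 forkhead factors (Foxp1, Foxp2 and Foxp4), the Bcl11 pair (Bcl11a and Bcl11b), 2 Ikaros family factors (Ikzf1 and Ikzf2), the zinc finger proteins Zfp503 and Zfp521, and the MADS box factor Mef2c. Their RNA was measured by sequencing of dissected lateral ganglionic eminence (LGE) from mice at E16.5. The groups were 3 libraries of wild type littermates and 3 of Dlx1/2 -/- mutants, all on a mixed genetic background of C57BL/6J, 129S6 and CD1. Dlx1 and Dlx2 are homeobox factors of ventral forebrain progenitors and young GABA neurons, and the labels name no Cre, so the loss is given for the whole embryo. Whether a library stands for 1 embryo or a pool is not stated, and the p-values cover library-to-library spread only, which may be technical.

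Striatal projection neurons are the GABA-releasing output cells of the striatum. They arise from LGE progenitors, leave the ventricular and subventricular zones and settle in the mantle, where they join the direct pathway, marked by dopamine receptor D1, or the indirect pathway, marked by D2. Several of the factors here act during that passage: Foxp1, Bcl11b (Ctip2) and Zfp503 (Nolz1) appear as the cells leave the cycle, while Ikzf1 (Ikaros) and Ikzf2 (Helios) mark late-born cells. Many of them have other sites of expression too, among them cortical neurons for Foxp1, Foxp2, Bcl11a, Bcl11b and Mef2c, microglia and endothelium for Mef2c, and blood lineages for Ikzf1.

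Library totals were 10711630 to 16588359 counts. The targeted genes were checked first. Dlx1 was at 898, 844 and 831 CPM (counts scaled to library size with TMM) in the wild type libraries, in the order of replicates 1 to 3, and at 109, 119 and 138 CPM in the mutant libraries. Dlx2 was at 471, 419 and 419 CPM against 16.2, 15.5 and 18.7 CPM, so every library matched its label. Of the 10 LGE markers listed, 9 were lower and 1, the progenitor factor Gsx2, was higher in the mutant. The 9 include Dlx1 and Dlx2 themselves, whose fall was set by the genotype. Some of the list, Gsx2 among them, are counted again below with other striatal transcription factors. Over all tested genes, 12.8% were called lower and 11.2% higher. Markers of neighbouring territories were read as well. The medial eminence markers Nkx2-1 and Lhx6 were at 75.1 ± 38.1 and 178 ± 38.4 CPM in wild type (mean ± SD, n = 3), while the pallial marker Emx1 was at 0.553 ± 0.396 CPM. Whether the Nkx2-1 and Lhx6 RNA came from neighbouring tissue or from cells within the LGE was not tested.

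All factors but Ikzf2 fell in the mutant and none rose, as the plot of CPM by library shows. Called lower were 9 of 10 (edgeR, adjusted p below 0.05), against 12.8% of the 15326 genes tested. All 10 passed the filter on low counts. In the same 9 genes every mutant library lay below every wild type library, against 21.2% of tested genes. In none of the 10 did every mutant library lie above, as in 20.7% of tested genes. Falls of at least 2-fold were estimated and called for 6 of the 10 (background 4.04%), and of at least 4-fold for 3 of the 10, Ikzf1, Foxp1 and Zfp503 (background 1.3%). When the test itself asked for a change beyond 2-fold, 4 genes passed: these 3 and Mef2c. The median log2 fold change of the 10 was −1.37, beside 0.0028 over all tested genes. In bulk tissue, fewer cells of a type and less RNA per cell cannot be told apart.

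**Figure D1:**
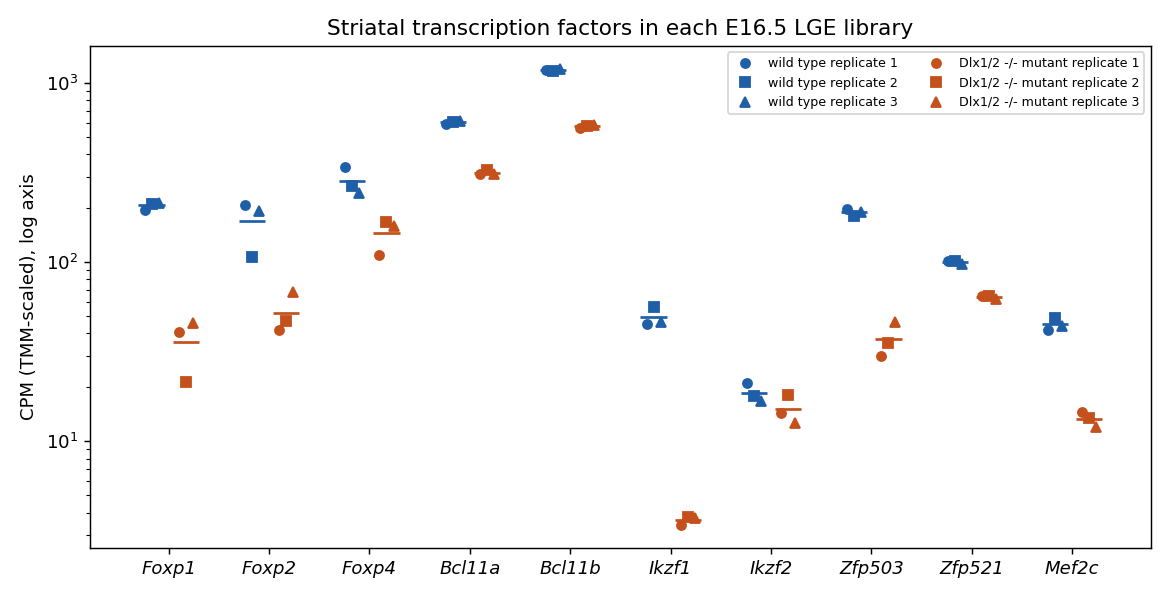
CPM of each of the 10 transcription factors (log axis) in the 3 wild type libraries (blue) and the 3 Dlx1/2 -/- mutant libraries (orange). Symbols mark the replicate and short lines the group mean. The groups are apart for every gene but Ikzf2, and the widest gap is that of Ikzf1.

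Promoter windows are shown first for the genes on which sequence can be read beside the fall in RNA. RefSeq windows on GRCm38.p6, 250 bases before to 50 after a start, matched 7 of the 10 factors with 12 windows; Foxp2, Ikzf2 and Zfp521 had no entry. Each window was searched for TAATTA, the core that Dlx proteins and many other homeodomain factors recognise. The motif is its own reverse complement, so a single search covers both strands. It stood in 2 of the 12 windows, at the second of 3 starts of Foxp1, 240 bases before it, and at the second of 3 starts of Mef2c, 102 bases before it. Among all 32851 windows given by RefSeq, the share that held it was 5.29%. Capitals mark the motif in these sequences, which run 5′ to 3′ along the gene's strand. Zfp503, with a single annotated start, is shown as a window of a gene that fell deeply and has no TAATTA there.
Foxp1 start 2 (chr6:99266466-99266765, minus strand): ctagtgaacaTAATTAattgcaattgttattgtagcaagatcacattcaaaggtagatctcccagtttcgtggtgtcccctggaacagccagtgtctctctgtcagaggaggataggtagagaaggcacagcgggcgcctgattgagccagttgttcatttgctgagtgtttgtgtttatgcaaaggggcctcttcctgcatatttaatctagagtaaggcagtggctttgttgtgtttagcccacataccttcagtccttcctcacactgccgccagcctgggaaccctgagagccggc
Mef2c start 2 (chr13:83523406-83523705, plus strand): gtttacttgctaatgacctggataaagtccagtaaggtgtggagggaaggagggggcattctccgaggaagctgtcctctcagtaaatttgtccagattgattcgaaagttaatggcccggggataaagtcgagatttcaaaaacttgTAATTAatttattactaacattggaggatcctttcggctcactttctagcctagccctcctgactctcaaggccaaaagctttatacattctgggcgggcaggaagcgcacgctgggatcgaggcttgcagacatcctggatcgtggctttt
Zfp503 (chr14:21989552-21989851, minus strand): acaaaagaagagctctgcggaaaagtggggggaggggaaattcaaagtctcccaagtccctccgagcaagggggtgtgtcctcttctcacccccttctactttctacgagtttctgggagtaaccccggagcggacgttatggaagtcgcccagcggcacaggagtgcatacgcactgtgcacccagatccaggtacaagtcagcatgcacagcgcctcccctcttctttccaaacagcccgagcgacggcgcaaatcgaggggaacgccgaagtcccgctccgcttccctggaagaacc

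The windows differed widely in base composition. Zfp503 held 19 CpG dinucleotides at 58.3% G and C, and Bcl11b 9 at 43.0%. The first Ikzf1 window held 52 at 81.3%, the most CpG of the 12, and its second held 2 at 49.0%. The median over the 12 was 11.5 CpG, beside 7 over all windows. Counts per gene do not say which start was used, and a match of letters is a description, not a site.

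Foxp1, Foxp2 and Foxp4 encode forkhead repressors that bind DNA as dimers with themselves and each other. All 3 fell, by different amounts. Foxp1 (ENSMUSG00000030067, GRCm38 chromosome 6, 98925338 to 99522721, minus strand), the member most used as a marker of projection neurons, was at 195, 212 and 215 CPM in wild type and at 40.6, 21.5 and 45.5 CPM in the mutant. The mutant libraries were spread far more than the wild type ones, with replicate 2 lowest, yet all lay far below. The means were 207 ± 11.02 and 35.9 ± 12.7 CPM (SD, n = 3), a log2 fold change of −2.53 ± 0.339 (SE; edgeR adjusted p = 1.81e-04).

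Foxp2 (ENSMUSG00000029563, chromosome 6, 14901349 to 15441977, plus strand), a factor of striatal and deep cortical neurons known from speech disorders, was at 207, 107 and 194 CPM in wild type. In the mutant it was at 41.8, 46.8 and 68.1 CPM. Wild type replicate 2 was low, but still above every mutant library. The log2 fold change was −1.70 ± 0.371 (edgeR adjusted p = 0.00297), and −1.94 without wild type replicate 2. Foxp4 (ENSMUSG00000023991, chromosome 17, 47867133 to 47924645, minus strand), the broadest of these factors, was at 341, 267 and 244 CPM and fell to 110, 168 and 159 CPM, a log2 fold change of −0.96 ± 0.240 (edgeR adjusted p = 0.00560).

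These forkhead genes were spread widely between replicates, Foxp1 in wild type excepted, where its coefficient of variation was 5.32%. In wild type the coefficient of variation of Foxp2 was 32.2%, above that of 98.7% of the 2846 tested genes within 2-fold of its level, whose median was 4.80%. In the mutant that of Foxp1 was 35.4%, above 98.6% of 4908 such genes. Foxp4 stood above 96.4% of like genes in wild type and 97.1% in the mutant. The replicates that stood out were not the same from gene to gene: wild type 2 for Foxp2, wild type 1 and mutant 1 for Foxp4, mutant 2 for Foxp1. The Bcl11 pair and Zfp521 had coefficients between 1.42% and 2.87% in each group.

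The make-up of Foxp reads shifted along with their total. The summed level of the 3 genes went from 661 ± 79.1 to 234 ± 40.1 CPM. Foxp1 gave 31.8 ± 5.10% of Foxp reads in wild type and 15.6 ± 6.08% in the mutant, while Foxp4 gave 43.0 ± 4.83% and 62.2 ± 7.77%. Shares of reads depend on transcript length and are compared here only between libraries. The log2 ratio of Foxp1 to Foxp4 was lower by 1.63 ± 0.499 in the mutant, with no overlap of groups, while those of Foxp1 to Foxp2 and Foxp2 to Foxp4 overlapped between the groups.

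Bcl11a and Bcl11b encode zinc finger proteins, also known as Ctip1 and Ctip2, that are subunits of the BAF chromatin remodelling complex. Bcl11b is needed for striatal neurons to mature and form patches. Both fell, with little spread between replicates. Bcl11b (ENSMUSG00000048251, chromosome 12, 107910403 to 108003602, minus strand) was at 1179, 1168 and 1201 CPM in wild type and at 559, 576 and 584 CPM in the mutant. Bcl11a (ENSMUSG00000000861, chromosome 11, 24078056 to 24174123, plus strand) was at 590, 602 and 617 CPM and at 310, 325 and 309 CPM. The log2 fold changes were −1.05 ± 0.022 for Bcl11b (edgeR adjusted p = 4.54e-06) and −0.94 ± 0.030 for Bcl11a (edgeR adjusted p = 5.70e-06). There were 2.00, 1.94 and 1.95 reads of Bcl11b per read of Bcl11a in wild type and 1.80, 1.77 and 1.89 in the mutant. That is a shift of −0.11 ± 0.031 on the log2 scale, small beside the fall of either gene although the groups did not overlap.

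The Ikaros family held both the deepest fall among the 10 and the factor that did not pass. Ikzf1 (ENSMUSG00000018654, chromosome 11, 11685003 to 11772926, plus strand) encodes Ikaros, which is known to favour enkephalin neurons of the indirect pathway. It was at 45.2, 56.5 and 46.4 CPM in wild type and at 3.41, 3.80 and 3.71 CPM in the mutant, backed by 473 to 869 and 56 to 60 reads per library. The fall was 13.6-fold, a log2 fold change of −3.76 ± 0.111 (edgeR adjusted p = 9.67e-07), which ranked 51 among the 15326 genes from the deepest fall up.

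Ikzf2 (ENSMUSG00000025997, chromosome 1, 69531214 to 69687245, minus strand) encodes Helios, a factor of late-born matrix neurons. It was at 21.0, 17.9 and 16.8 CPM in wild type and at 14.4, 18.2 and 12.7 CPM in the mutant. The groups overlapped, since mutant replicate 2 exceeded 2 of the wild type libraries. The log2 difference was −0.29 ± 0.181, with a 95% interval of −0.64 to 0.05 (edgeR adjusted p = 0.204). The lower end of that interval lies above the estimated change of each called factor, though that of Zfp521 is only just beyond it. The 95% intervals of Zfp521 (−0.77 to −0.53) and Foxp4 (−1.37 to −0.56) overlap with that of Ikzf2. A difference between Ikzf2 and the called factors was not tested. Wild type libraries held 2.15 to 3.15 reads of Ikzf1 per read of Ikzf2 and mutant libraries 0.208 to 0.292, a log2 shift of −3.45 ± 0.215 with groups apart.

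Zfp503 and Zfp521 are zinc finger factors tied to the direct pathway. Zfp503 (ENSMUSG00000039081, chromosome 14, 21983959 to 21989601, minus strand) encodes Nolz1, a repressor of the NET family that works with Groucho proteins. It was at 197, 181 and 192 CPM in wild type and at 29.8, 35.2 and 46.5 CPM in the mutant, apart in every library. The log2 fold change was −2.35 ± 0.190 (edgeR adjusted p = 1.93e-05), a 5.11-fold fall. Zfp521 (ENSMUSG00000024420, on chromosome 18), a many-fingered protein that binds Ebf1, had the mildest of the called falls. It was at 101, 101 and 97.5 CPM and at 64.5, 64.6 and 62.3 CPM, a log2 fold change of −0.65 ± 0.024 (edgeR adjusted p = 8.09e-05).

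Mef2c (ENSMUSG00000005583, chromosome 13, 83504034 to 83667080, plus strand) encodes a MADS box factor through which activity shapes synapses. It was at 41.9, 49.0 and 43.9 CPM in wild type and at 14.6, 13.4 and 11.95 CPM in the mutant. All mutant libraries lay well below, with a log2 fold change of −1.76 ± 0.106 (edgeR adjusted p = 1.48e-05). In the authors' deposited table the p-value of Ikzf2 is 0.0841, while the other 9 genes have values from 2.24e-104 to 1.58e-08. Permuting the 6 libraries exactly (two-sided) gave p = 0.1 for the 9 called genes, the smallest value this design allows, and p = 0.3 for Ikzf2.

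The order of the factors by level was compared per length, as CPM per kilobase of the longest transcript in GENCODE M21. In wild type it ran from Bcl11b (146), Bcl11a (101), Foxp4 (71.0), Zfp503 (45.1), Foxp1 (28.9) and Foxp2 (25.0) to Zfp521 (16.1), Ikzf1 (9.56), Mef2c (7.16) and Ikzf2 (2.00). Neighbours in this order did not overlap between libraries, save that Foxp2 overlapped with Foxp1 and with Zfp521. In the mutant Bcl11b (70.6), Bcl11a (52.5) and Foxp4 (36.4) kept the top places. Below them came Zfp521 (10.3), Zfp503 (8.81), Foxp2 (7.72), Foxp1 (4.999), Mef2c (2.12), Ikzf2 (1.63) and Ikzf1 (0.705). There the libraries of Zfp521 and Zfp503, Zfp503 and Foxp2, Foxp2 and Foxp1, and Mef2c and Ikzf2 overlapped. Zfp521 moved from place 7 to place 4, and Ikzf1 from place 8 to place 10. With the merged length of all exons in place of the longest transcript, Foxp4 stood above Bcl11a in both groups.

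Among relatives of the factors more genes rose than fell. Of 9 relatives listed, 8 were in the table and 6 had enough reads to test; 3 were higher (background 11.2%), 1 was lower and 2 were not called, with a median log2 fold change of 0.41. The 2 left untested, Foxp3 and Mef2b, were at 0.594 and 0.323 CPM in wild type. Zfp423, the close relative of Zfp521 and likewise a partner of Ebf factors, rose from 19.0, 18.9 and 18.7 CPM to 53.8, 51.4 and 51.8 CPM. Its log2 fold change was 1.47 ± 0.021 (edgeR adjusted p = 3.51e-06), so that reads of Zfp521 per read of Zfp423 went from 5.21 to 5.34 in wild type libraries to 1.20 to 1.26 in mutant ones. The log2 ratio shifted by −2.12 ± 0.025, the most even of the ratios across replicates.

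Zfp703, the other NET family gene, rose from 50.4 ± 1.43 to 67.8 ± 5.59 CPM while Zfp503 fell, a log2 shift of their ratio of −2.80 ± 0.129. Wild type libraries held 3.71 to 3.81 reads of Zfp503 per read of Zfp703, and mutant libraries 0.460 to 0.626, so the more abundant of the pair by reads changed. Among Ikaros relatives, Ikzf5 (Pegasus) rose from 48.5 ± 5.70 to 67.7 ± 1.51 CPM, and Ikzf4 (Eos) was at 33.2 ± 1.39 and 32.5 ± 1.54 CPM (edgeR adjusted p = 0.792). Reads of Ikzf5 overlap those of Pstk on the other strand over 4652 exonic bases, and use of strand in counting is not stated. Pstk itself was at 5.53 and 6.13 CPM (edgeR adjusted p = 0.522). Ikzf1 gave 33.0 ± 3.68% of the reads of these 4 Ikaros genes in wild type and 3.06 ± 0.175% in the mutant.

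Among Mef2 genes, Mef2d fell with Mef2c, but less, from 139 ± 3.63 to 95.3 ± 2.11 CPM (log2 fold change −0.54 ± 0.028, edgeR adjusted p = 1.40e-04). Mef2a was at 123, 124 and 58.2 CPM in wild type, where replicate 3 stood apart, and at 134, 141 and 127 CPM in the mutant (edgeR adjusted p = 0.293). The log2 ratio of Mef2c to Mef2d was lower by 1.21 ± 0.134 and that of Mef2c to Mef2a by 2.23 ± 0.358. Of the 9 ratios computed, 7 had groups apart and an exact two-sided permutation p = 0.1, the smallest that 3 against 3 libraries allow, or 0.129 after Benjamini-Hochberg adjustment over the 9. The other two, among Foxp genes, had exact p = 0.2.

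**Figure D2:**
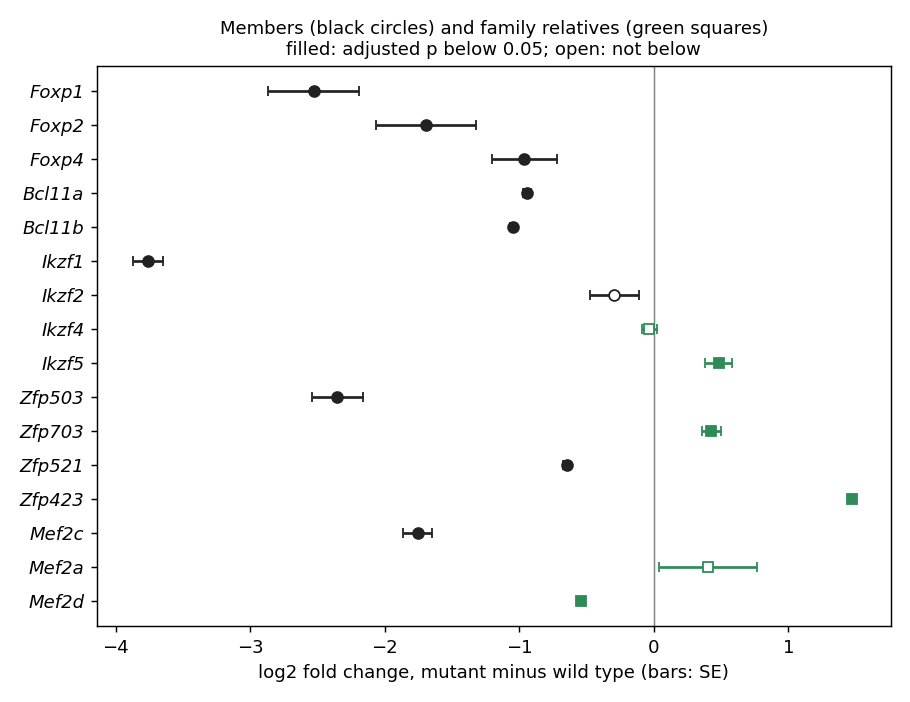
Log2 fold change, mutant minus wild type, with its SE, for the 10 factors (black circles) and their tested relatives (green squares); open symbols did not pass the test. The relatives lie between −0.54 and 1.47, to the right of every factor but Ikzf2, which lies among them.

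**Figure D3:**
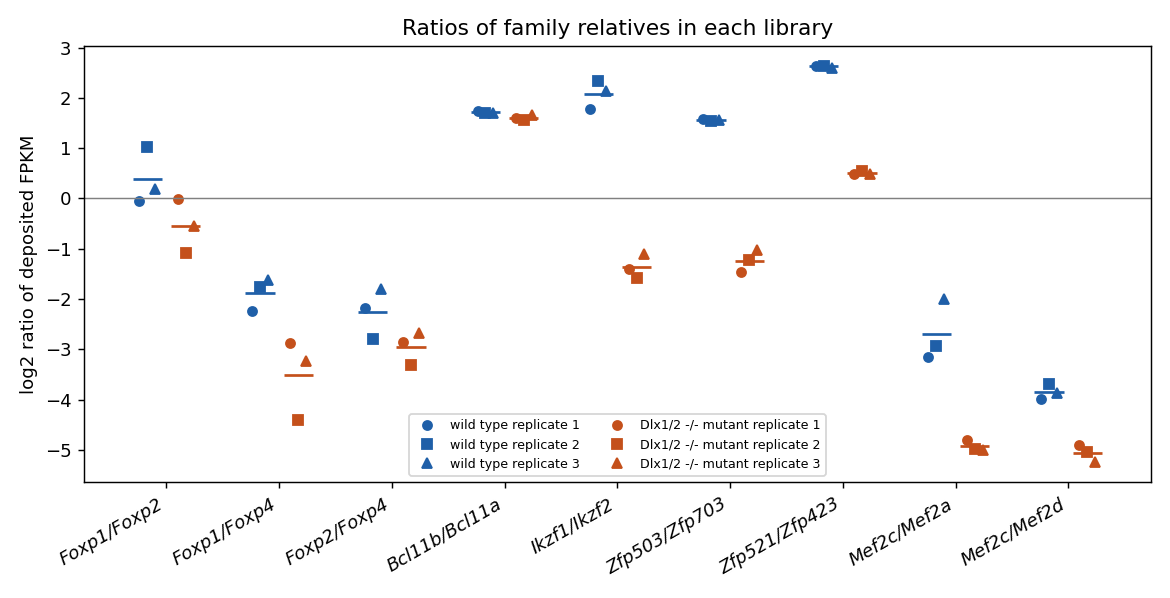
Log2 ratio of the deposited FPKM of pairs of relatives in each library, wild type blue and mutant orange, with the group mean as a line. Zfp521/Zfp423 and Zfp503/Zfp703 are tight within groups and far apart between them, Bcl11b/Bcl11a moves by 0.11 only, and Foxp1/Foxp2 and Foxp2/Foxp4 overlap.

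Genes for proteins that work with these factors were more often higher than lower. Of 17 listed partners 6 were higher (background 11.2%), 1 was lower (background 12.8%) and 10 were not called, with a median log2 fold change of 0.08. Tle1, a Groucho corepressor that Nolz1 recruits, rose from 114 ± 5.07 to 204 ± 8.79 CPM. Hdac9 and Hdac4, class IIa histone deacetylases that bind and silence Mef2 proteins, rose as well: Hdac9 from 12.4 ± 0.923 to 30.7 ± 1.94 CPM, and Hdac4 from 48.8 ± 1.82 to 69.0 ± 1.52 CPM. Hdac1, a subunit of the NuRD complex that Ikaros recruits, rose from 27.5 ± 1.84 to 36.3 ± 0.731 CPM. The gene called lower was Actl6b, a neuronal BAF subunit, named here for being alone in its direction, at 129 ± 7.55 and 109 ± 7.18 CPM (edgeR adjusted p = 0.0366). That call was lost without wild type replicate 1 or 2 or mutant replicate 1 or 2.

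Other transcription factors of the striatum were mostly lower too. Of 18 listed, 14 were lower (background 12.8%), 2 higher (background 11.2%) and 2 not called, with a median log2 fold change of −0.75. The deepest were the retinoid receptor genes Rxrg, from 136 ± 16.2 to 4.003 ± 1.26 CPM, and Rarb, from 127 ± 3.77 to 5.51 ± 0.629 CPM. For these the estimated fall was deeper than that of Ikzf1. Ebf1, the partner of Zfp521, fell 6.83-fold and the homeobox factor Meis2 2.84-fold. Gsx2, a progenitor factor named for its direction, rose from 24.7 ± 4.17 to 54.7 ± 2.43 CPM.

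Genes for the working parts of mature projection neurons were lower in 14 of 19 cases (background 12.8%) and higher in 2 (background 11.2%). Their median log2 fold change was −2.04. Drd1, the D1 dopamine receptor, fell 30.9-fold, Ppp1r1b, which encodes DARPP-32, 24.3-fold and Tac1, the substance P precursor, 14.4-fold. Ikzf1, at 13.6-fold, came nearest to these among the 10 factors. The 2 that rose were Pde1b, from 80.3 ± 3.07 to 129 ± 13.2 CPM, and Ptpn5, from 64.4 ± 11.9 to 98.4 ± 10.5 CPM; they are named for their direction, and the count was 1 without mutant replicate 1 or 2. The lists overlap in purpose with the 10 factors and were drawn up with earlier results of these data known.

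**Figure D4:**
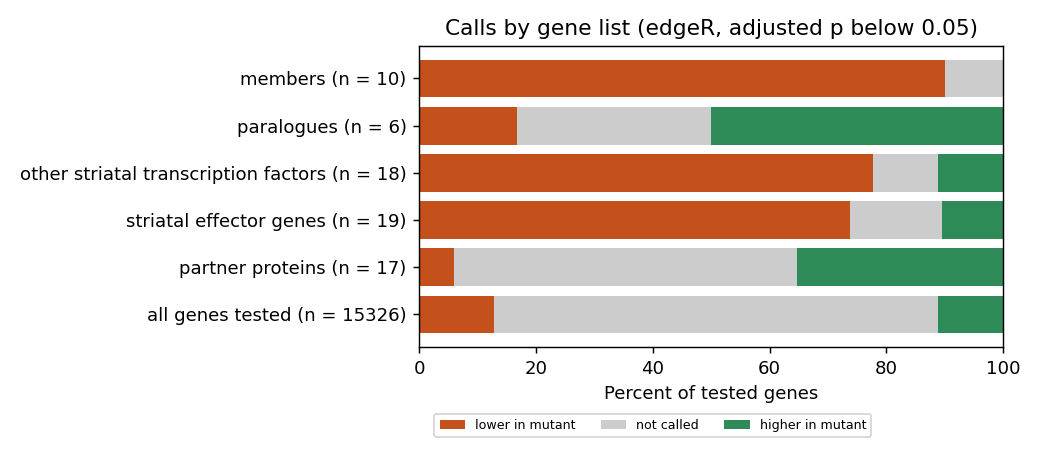
Percent of tested genes called lower (orange), higher (green) or not called (grey) in each list, with all 15326 tested genes at the bottom. The 10 factors, other striatal transcription factors and striatal effector genes are mostly lower, whereas relatives and partner proteins are not.

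Genes next to the factors on the chromosome were examined for like changes. Of the 20 nearest tested neighbours, 1 on each side, 5 were lower (background 12.8%), 1 was higher (background 11.2%) and 14 were not called. The 6 are named after their values were seen. C130012C08Rik, 2835 bases from Zfp503, fell from 9.16 to 0.668 CPM, which is −3.76 on the log2 scale against −2.35 for Zfp503 itself. Gm12063, 689 bases from Bcl11a, went from 22.3 to 8.19 CPM. Erbb4, a neuregulin receptor gene 423155 bases from Ikzf2, fell from 174 to 49.3 CPM although Ikzf2 did not pass. Beside Foxp1, RP23-473K6.1 went from 2.04 to 0.042 CPM, under 3 reads in each mutant library, at 676727 bases and Eif4e3 from 15.5 to 10.7 CPM at 102414 bases. Impact, 694063 bases from Zfp521, rose from 29.7 to 41.1 CPM. The neighbours of Foxp2, Foxp4, Bcl11b, Ikzf1 and Mef2c were not called.

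Markers of other cells that could carry these factors were measured beside them, as the plot of summed levels shows. Over all tested genes, 11.2% were called higher and 12.8% lower, the background for each count below. The 10 microglia markers, whose cells can express Mef2c and Ikzf1, summed to 61.1 to 69.8 CPM in wild type and 74.6 to 87.0 CPM in the mutant; 1 of 10, Tyrobp, was higher and none was lower. The count higher was 0 without wild type replicate 3 or mutant replicate 1 or 2, and 2 without wild type replicate 1. The 8 endothelial markers summed to 149 to 169 CPM and 142 to 152 CPM, with 1 of 8, Flt1, lower. That count was 0 without any single library other than wild type replicate 1. The microglia count called higher and the endothelial count called lower were near the background. In 6 of the 10 microglia markers, however, every mutant library lay above every wild type library, against 20.7% of tested genes. The median log2 fold change of the 10 was 0.49. Every mutant library lay below every wild type library in 2 of the 8 endothelial markers, against 21.2% of tested genes. Ikzf1 fell 13.6-fold and Mef2c 3.37-fold, and the part of microglia and endothelium in those falls was not tested. Pallial glutamatergic markers summed to 30.6 to 77.9 CPM in wild type and 154 to 241 CPM in the mutant, with 5 of 8 tested higher, among them Neurod2, Neurod6 and Bhlhe22, and 3 not called. Among the latter, and named after their values were seen, Tbr1 was at 12.6 and 6.91 CPM and Neurog2 at 8.74 and 3.73 CPM, the other way. Pallial markers called lower numbered 2 without wild type replicate 1 and 1 without mutant replicate 2. Their defining markers Emx1 and Slc17a7 stayed at or below 0.785 CPM in each library, with no read of Slc17a7 in wild type replicate 1. In medial eminence markers, Sst and Sox6 were higher, Maf and Lhx8 lower, and the other 3 of the 7 not called, Nkx2-1 and Lhx6 among them. Their sums were 357 to 542 and 622 to 713 CPM. Sst, the somatostatin gene, went from 17.2 to 223 CPM, and without it the sums overlapped, at 344 to 522 and 409 to 457 CPM. The part of these cells in the levels of Foxp1, Foxp2, Bcl11a, Bcl11b and Mef2c was not tested.

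General neuronal markers changed in both directions. For the counts in these lists too, the background was 12.8% lower and 11.2% higher. The 8 summed to 5041 to 5798 CPM in wild type and 4474 to 4725 CPM in the mutant, with 3 lower, among them Tubb3 and Stmn2, and 2 higher, Rbfox3 and Elavl4. The 10 factors together had a summed level equal to 50.4%, 53.2% and 56.9% of that neuronal sum in the wild type libraries and to 26.3%, 26.9% and 29.1% in the mutant ones, a 1.95-fold difference with groups apart. Bcl11b alone gives the largest part of the summed factors. Map2, named after its values were seen, was an uneven part of the neuronal sum. It stood at 1156, 475 and 470 CPM in the wild type libraries and at 670, 875 and 718 CPM in the mutant ones. Radial glia markers summed to 1746 to 1975 CPM and 2313 to 2362 CPM, with 4 of 8 higher and none lower. Oligodendrocyte lineage markers summed to 78.3 to 113 CPM and 126 to 143 CPM, with 2 of 5 higher. Erythroid markers summed to 434 to 643 CPM and 580 to 776 CPM, with 1 of 5 tested higher. None of these last 3 lists had a member called lower, but 1 radial glia marker was lower without mutant replicate 2. Oligodendrocyte lineage markers called higher numbered 1 without mutant replicate 1 or 3.

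**Figure D5:**
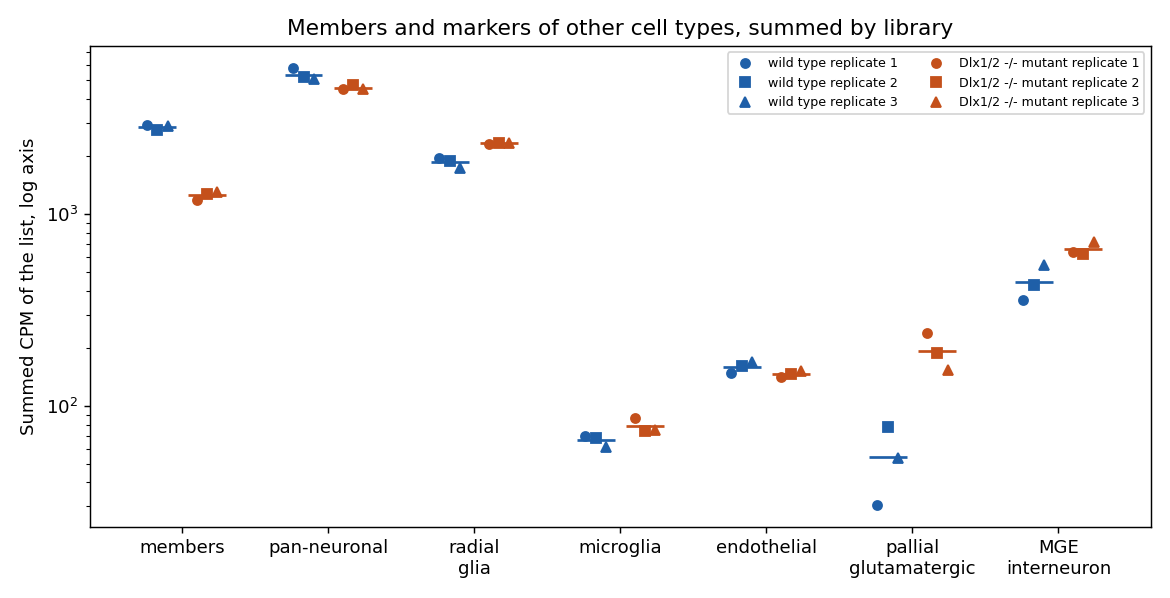
Summed CPM (log axis) of the 10 factors and of marker lists in each library, wild type blue and mutant orange, with group means as lines. The factors drop from 2761 to 2919 CPM in wild type to 1188 to 1303 CPM in the mutant, microglia sums are slightly higher, endothelial sums overlap, and pallial and medial eminence sums are higher, the latter through Sst.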

How the data were processed

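The authors deposited raw read counts per gene, FPKM per library and a p-value per gene in 1 table, per the file headers. No source used here gives the test behind that p-value, the counter, or whether strand was used. Tools listed by the submitters' processing notes are HISAT2 2.0.4, StringTie 1.3.0 and edgeR; builds listed there are mm10 and GRCm38.p4, with no roles. The length behind the deposited FPKM is fixed per gene, and in 70.4% of 12362 genes it exceeds the merged exons of the gene in GENCODE M21. FPKM therefore served only for ratios between libraries, where that length cancels, and not to rank genes, for which it was planned only if per length. Ranks use CPM per kilobase of the longest GENCODE transcript, a choice made after the table had been seen.

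Counts were fitted in R 4.3.3 with edgeR 4.0.16: filterByExpr (15326 of 21286 genes kept), TMM, glmQLFit and glmQLFTest, two-sided, Benjamini-Hochberg over all genes, threshold 0.05. The biological coefficient of variation was 0.122. SE comes from the spread of log2 CPM with 0.5 added to counts, and 95% intervals from the quasi-likelihood F. The SE is thus not that of the fitted model and can be far narrower than its interval. For Bcl11b the 95% interval was −1.16 to −0.93, beside an SE of 0.022. Totals of 10711630 to 16588359 put 3 counts at 0.181 to 0.287 CPM. Replicates differed beyond sampling noise, with chi-square per degree of freedom of 7.60 to 15.3. The fit was tested on simulated counts.

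The 10 genes and the lists (14 lists, 141 distinct genes) were chosen with earlier results of these data known. Besides the factors, their relatives, Dlx1 and Dlx2, up to 4 called genes per list with the smallest adjusted p could be named, or the 2 highest where none was called; defining markers could be named too. Others are marked as named after their values were seen. Values of 2 genes of the lists are not reported here. Alternatives were RLE scaling, no filter, DESeq2 1.42.0, the replicate number as a block, leaving out each library, a threshold of 0.01, a 2-fold minimum, and thinning to the smallest total; the medial eminence sum without Sst and levels per merged exon length were added after seeing the data. Promoter sequences are from RefSeq on GRCm38.p6, and gene positions from GENCODE M21 on GRCm38.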

Additional observations from a re-analysis of the deposited data

How the results depend on the processing

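The 9 falls and the uncalled state of Ikzf2 held under RLE scaling, no filter on low counts, DESeq2, a threshold of 0.01, thinning, the replicate block and each left-out library. Members called lower numbered 9 in each of the 6 fits without a library. Over all 13 alternatives log2 fold changes stayed between −2.74 and −2.27 for Foxp1, −1.94 and −1.53 for Foxp2 and −3.82 and −3.65 for Ikzf1, and the adjusted p of Ikzf2 between 0.0655 and 1. With the 2-fold minimum, the counts lower were 4 for the 10 factors, 6 for other striatal transcription factors, 0 for relatives and 0 for partner proteins, and the counts higher were 1 for relatives, 1 for partner proteins, 0 for other striatal transcription factors and 0 for effector genes. Partner proteins had 0 lower with the replicate block, the threshold of 0.01 and thinning, and 0 to 1 without a library. Effector genes had 1 higher at 0.01 and 1 to 2 without a library. Ikzf4 lay between −0.0599 and 0.00438 without a library, the latter, a change of sign, without mutant replicate 3. The causes were not tested. Libraries with the same replicate number showed no shared deviation (r of −0.176, 0.043 and −0.168). From deviations within groups of 3 libraries, these values cannot show whether the numbers stand for a pairing. The replicate block gave 9 factors lower. Over all genes it gave 1458 lower and 1223 higher, against 1958 and 1715 without the block. Over all genes, a 2-fold minimum left 280 lower and 144 higher, and a threshold of 0.01 left 1116 and 875. The 9 log2 ratios kept their sign in the alternatives run for them. The order of levels held in 43 of 45 pairs of factors with merged exons in each group, and with deposited FPKM in 40 in wild type and 43 in the mutant, where Zfp503 took place 2 in wild type and Ikzf1 place 9 in the mutant. Endothelial markers lower were 0 with DESeq2, the block, thinning, the 2-fold minimum and 0.01. Microglia markers higher were 2 with DESeq2 and 0 with the 2-fold minimum and 0.01, and pallial markers lower were 1 with DESeq2, the block and no filter. Erythroid markers higher were 2 with DESeq2 and the block, and oligodendrocyte lineage markers higher were 1 at 0.01. With the 2-fold minimum the counts higher were 1 for radial glia, 0 for oligodendrocyte lineage and 0 for erythroid markers. Ikzf1 in the mutant rests on 56 to 60 reads a library, fewer than any other of the 10 factors.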
